A study of Mus musculus with 18 samples.

Results

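The transcripts of 6 pancreatic digestive protease genes were followed in whole pancreas: 4 chymotrypsin-like elastase genes, Cela1, Cela2a, Cela3a and Cela3b, and 2 carboxypeptidase genes, Cpa1 and Cpb1. They were taken by gene symbol from the 25651 genes of the count table, and 6 of 6 were found and passed the filter on low counts that left 6920 genes for testing. The samples were snap-frozen pancreata of 18 mice on a mixed 129Sv and C57BL/6 background, each aged 20 weeks and each giving 1 library. The genotype labels gave 6 WT (wild type), 7 KPC and 5 KPC ASC KO animals, so that the KPC genotype is shared by the last group and its controls. The name KPC is commonly given to a mouse model of pancreatic cancer, but here the labels spell out neither the alleles nor a Cre driver. ASC is the inflammasome adaptor encoded by Pycard, and neither the deleted part of that gene nor the cells in which it was deleted is named in the labels.

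Acinar cells, the exocrine cells that make up most of the pancreas, synthesise these proteins, store them in zymogen granules and release them into the duct system as inactive precursors. In the gut, trypsin removes the activation peptides. The active elastases are serine proteases that cut proteins internally next to uncharged residues. The carboxypeptidases are zinc metalloproteases that remove single residues from the carboxyl end of a peptide: aromatic and aliphatic residues by carboxypeptidase A1, and the basic residues lysine and arginine by carboxypeptidase B1. High transcription of such genes in acinar cells depends on a PTF1 complex, which contains PTF1A and RBPJL and binds paired E-box and TC-box motifs in their promoters.

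Positions are those of the deposited table, in GRCm38. Cela1 (ENSMUSG00000023031) is on chromosome 15 at 100674421 to 100687921 and Cela2a (ENSMUSG00000058579) on chromosome 4 at 141814962 to 141826160. Cela3a (ENSMUSG00000078520), on chromosome 4 at 137401554 to 137409791, and Cela3b (ENSMUSG00000023433), at 137420999 to 137430540, are neighbours on the minus strand with 11207 bp between them. Cpa1 (ENSMUSG00000054446) is on chromosome 6 at 30639218 to 30645363, and Cpb1 (ENSMUSG00000011463) is on chromosome 3 at 20248264 to 20275733, 6082 bp from the mast cell carboxypeptidase gene Cpa3. In the GENCODE M21 annotation the main transcripts of the elastase genes have 8 exons each, that of Cpa1 has 10 and that of Cpb1 has 11.

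Upstream sequences of 4 of the 6 genes, all but Cela2a and Cpa1, are shown here (RefSeq promoter windows, GRCm38.p6, 6 of 6 genes matched). Each runs 5′ to 3′ toward the start of transcription, and bases inside the Ensembl gene model are left out. Capitals mark the E-box letters CACCTG, the TC-box letters TGGGAAA and the TATA-box letters TATAAA, each on either strand, so that CAGGTG and TTTCCCA are the same motifs read from the other strand; none of the marked matches overlaps another.
Cela1, chr15:100687922-100688170, minus strand: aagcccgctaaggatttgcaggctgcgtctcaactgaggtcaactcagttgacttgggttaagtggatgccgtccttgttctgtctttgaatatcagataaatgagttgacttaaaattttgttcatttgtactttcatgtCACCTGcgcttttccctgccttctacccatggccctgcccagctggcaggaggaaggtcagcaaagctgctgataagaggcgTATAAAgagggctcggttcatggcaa
Cela3a, chr4:137409792-137410041, minus strand: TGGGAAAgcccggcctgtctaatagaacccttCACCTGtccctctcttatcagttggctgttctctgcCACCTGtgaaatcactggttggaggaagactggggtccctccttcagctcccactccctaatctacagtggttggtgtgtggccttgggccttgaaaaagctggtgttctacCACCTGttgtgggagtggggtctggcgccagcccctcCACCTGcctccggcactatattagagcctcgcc
Cela3b, chr4:137430541-137430770, minus strand: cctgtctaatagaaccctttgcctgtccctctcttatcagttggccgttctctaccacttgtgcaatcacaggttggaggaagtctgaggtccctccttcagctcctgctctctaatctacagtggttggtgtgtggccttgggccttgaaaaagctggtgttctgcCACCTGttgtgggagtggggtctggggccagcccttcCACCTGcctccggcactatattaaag
Cpb1, chr3:20275734-20275983, minus strand: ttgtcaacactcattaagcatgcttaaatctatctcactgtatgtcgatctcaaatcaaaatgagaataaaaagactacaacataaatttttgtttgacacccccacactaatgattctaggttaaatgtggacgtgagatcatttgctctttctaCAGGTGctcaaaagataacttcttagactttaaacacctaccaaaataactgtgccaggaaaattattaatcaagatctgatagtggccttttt

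Within the 250 bases before the RefSeq start, CACCTG was found in 5 of the 6 genes, Cpa1 being without it, against 17.2% of 32851 mouse promoter windows of the same length. Cela3a holds 4 copies, Cela3b holds 2, and Cela1, Cela2a and Cpb1 hold 1 each. Of all windows, 0.247% hold at least 3 copies. TGGGAAA was found in 3 of 6 (Cela2a, Cela3a and Cpa1) against 6.82% of windows, and both motifs together in 2 of 6 (Cela2a and Cela3a) against 1.17%. The TGGGAAA of Cela2a, 85 to 79 bases before the RefSeq start, lies inside the Ensembl gene model, which covers the last 155 bases of that window. TATAAA was found in Cela1 alone among the 6, 27 to 22 bases before the start, against 12.4% of windows. The Cela3a and Cela3b windows align over 237 bases, of which 217 are identical (91.6%), and 2 of the 4 CACCTG copies of Cela3a are not spelled that way in the Cela3b window. These are matches of letters and were not tested as binding sites.

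The main transcripts of the neighbouring pair are also close copies: 867 of 916 aligned bases of Cela3a and Cela3b (94.7%) are identical. Of the 858 stretches of 101 bases in Cela3a, the read length of the study, 101 (11.8%) occur letter for letter in Cela3b. No such stretch is shared between any of the other elastase pairs or between Cpa1 and Cpb1, whose aligned bases are 61.1% to 63.8% identical. Counts of Cela3a and Cela3b are therefore uncertain to the extent that the authors' counting, whose rule for ambiguous reads is not given in the sources used here, split shared reads between them.

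Library totals ran from 294077 counts (WT mouse 1237) to 1626977 counts (KPC mouse 43), and each count is 1 captured molecule. Counts behind a single value ran from 192 (Cela3a in KPC mouse 89) to 20582 (Cela1 in KPC ASC KO mouse 318), so counting error is small beside the differences between mice. Levels are given as normalised CPM, counts per 1000000 counts in tested genes after scaling between libraries with TMM (trimmed mean of M values). They are not divided by transcript length, so levels are compared between mice and not between genes. Acinar markers outside the 6 genes were detected in every group (8 of 8, among them Pnlip and Amy2a5). Pycard, the targeted gene, averaged 19.9 CPM in the KPC ASC KO libraries (SD 11.7, n = 5, from 3 to 12 counts each) and 70.0 CPM in the KPC libraries (SD 24.2, n = 7). KPC mice 40, 89, 145 and 154 stood apart from the other KPC mice in B cell marker transcripts, with summed levels of 506.7 to 948.6 CPM against 23.0 to 114.1 CPM. Results are therefore also given without these 4 mice, a choice made after seeing the data.

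The first comparison asks how the KPC genotype alters these transcripts. At 20 weeks, 6 of 6 were lower in KPC than in WT pancreas, by 5.11-fold (Cela3b) to 9.26-fold (Cela1) in edgeR's quasi-likelihood test. Their median log2 fold change was -2.65, against 0.06 over all tested genes. Of the 6920 genes tested, 15.1% were called lower at the same threshold, an adjusted p under 0.05. Every KPC mouse lay below every WT mouse for 6 of 6, a separation in that direction found for 5.09% of tested genes. In bulk tissue, fewer acinar cells and less of these transcripts per acinar cell cannot be told apart.

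Cela1, an elastase with a preference for alanine, ran from 31334 to 63394 CPM in WT mice with a median of 39605. In KPC mice it ran from 764 CPM (mouse 43) to 15652 CPM (mouse 48) with a median of 1907. The groups did not overlap, and the KPC mice spread over a 20.5-fold range against 2.02-fold in WT. The log2 fold change was -3.21 (SE 0.64, adjusted p = 0.000994), the 26th most lowered of the 6920 tested genes. Cela2a, an elastase that cuts after leucine, methionine and phenylalanine, ran from 8800 to 17760 CPM with a median of 11054 in WT and from 265 to 5676 CPM with a median of 731 in KPC mice. It was lower by 6.45-fold (log2 -2.69, SE 0.58, adjusted p = 0.00196 in edgeR).

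Cela3a and Cela3b encode closely related proteases that cut next to alanine and have little activity on elastin itself. Cela3a ran from 3164 to 10104 CPM with a median of 5714 in WT mice and from 102 to 2203 CPM with a median of 409 in KPC mice. Its log2 fold change was -3.01 (SE 0.70, adjusted p = 0.00427 in edgeR). Cela3b ran from 26966 to 54370 CPM with a median of 33053 in WT and from 948 to 21536 CPM with a median of 2609 in KPC mice. It was lower by 5.11-fold (log2 -2.35, SE 0.60, adjusted p = 0.00528 in edgeR). The highest KPC value, that of mouse 48, stayed under the lowest WT value for either gene.

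The carboxypeptidases fell alongside the elastases. Cpa1 ran from 32560 to 65752 CPM with a median of 42262 in WT and from 1284 to 23886 CPM with a median of 2619 in KPC mice, a log2 fold change of -2.61 (SE 0.61, adjusted p = 0.00307 in edgeR). Cpb1 ran from 17722 to 34989 CPM with a median of 23276 in WT and from 656 to 13857 CPM with a median of 1626 in KPC mice, a log2 fold change of -2.45 (SE 0.59, adjusted p = 0.00352 in edgeR). The order of the KPC mice was the same for Cela1, Cela3b, Cpa1 and Cpb1: mouse 48 highest, then 210, 40, 145, 154, 89 and 43. For Cela2a mice 89 and 154, and for Cela3a mice 43 and 89, changed places. Without KPC mice 40, 89, 145 and 154, 2 of 6 were still called lower, Cela1 (log2 -2.45, adjusted p = 0.0403) and Cela2a (-2.03, adjusted p = 0.0496), and the other log2 fold changes lay between -2.36 and -1.69 with adjusted p up to 0.112. Without KPC mouse 48 alone, the differences were larger, with log2 fold changes between -3.94 (Cela1) and -2.97 (Cela3b), and 6 of 6 were called lower.

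**Figure D1:**
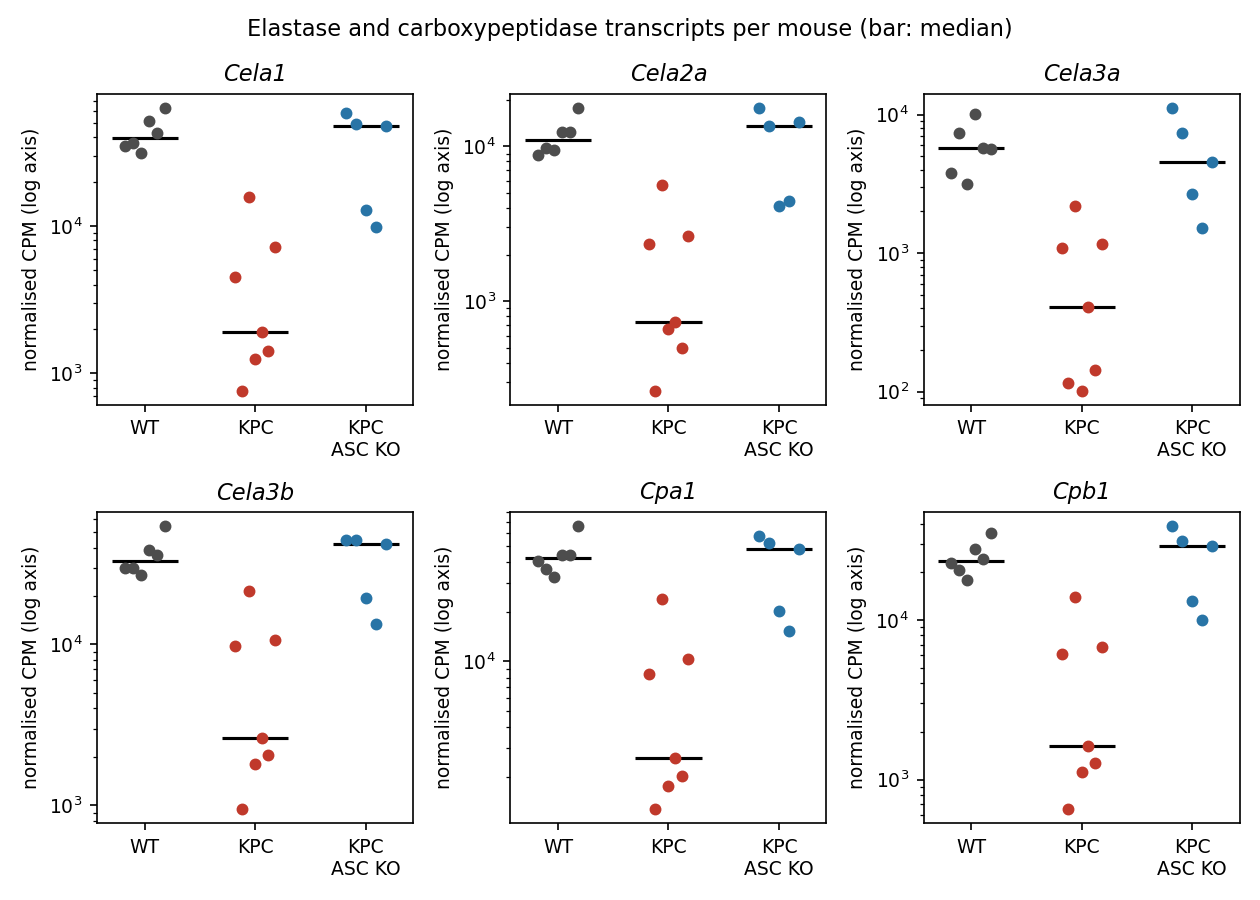
Normalised CPM of each gene on a log axis in WT (n = 6), KPC (n = 7) and KPC ASC KO (n = 5) pancreas; each point is 1 mouse and the bar is the group's median. All KPC points lie below all WT points in each panel, and in each panel KPC ASC KO mice 318, 335 and 388 lie above the lowest WT mouse and mice 377 and 384 below it.

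As a share of all counts in a library, without any scaling between libraries, the 6 genes together held 10.6% ± 1.07 (SD, n = 6) in WT pancreas and 3.13% ± 2.55 (SD, n = 7) in KPC pancreas. The KPC libraries ranged from 0.797% (mouse 43, 95% exact binomial interval 0.783% to 0.811%) to 7.63% (mouse 48, 7.55% to 7.70%), and the WT libraries from 9.40% to 12.3%. Intervals cover counting error only. The elastases held 6.22% ± 0.717 in WT and 1.72% ± 1.39 in KPC libraries, and the carboxypeptidases 4.39% ± 0.433 and 1.40% ± 1.16 (SD, n = 6 and n = 7). The raw count of the 6 genes was 12402 to 15936 in KPC mice 43, 89, 145 and 154, whose library totals were 917213 to 1626977. With libraries scaled by their total counts alone, the median log2 fold change of all tested genes was 1.41 for KPC against WT, and the 6 genes stood between -2.24 (Cela1) and -1.38 (Cela3b), 6 of 6 still called lower.

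Summed marker transcripts of other cell types differed in direction between KPC and WT mice. The summed level of 8 macrophage markers, all detected, was 800 to 1107 CPM in WT and 1843 to 2911 CPM in KPC mice. That of 8 fibroblast markers, all detected, was 786 to 1166 CPM and 1557 to 2931 CPM. Neither sum overlapped between WT and KPC mice. Duct markers, 10 of 10 detected, were at 1378 to 1990 CPM in WT mice, and no KPC mouse lay in that range. KPC mice 40, 89, 145 and 154 lay below it, at 810 to 1324 CPM. KPC mice 43, 48 and 210 lay above it, at 2700 to 3348 CPM. The sum of 7 islet markers, all detected, had a median of 502 CPM (320 to 3869) in KPC and 5779 CPM (1613 to 11695) in WT mice. It lay below the WT range in KPC mice 40, 89, 145 and 154, at 320 to 502 CPM. In KPC mice 43, 48 and 210 it lay within that range, at 1840 to 3869 CPM. In KPC ASC KO mice it was 3180 to 7980 CPM. Adipocyte markers, 5 of 5 detected, had medians of 176 CPM in KPC and 240 CPM in WT mice. The part of these cell types in the lower elastase and carboxypeptidase levels was not tested.

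The second comparison asks how deletion of ASC alters these transcripts within the KPC genotype. In KPC ASC KO pancreas 6 of 6 were higher than in KPC pancreas, by 4.66-fold (Cela3b) to 7.62-fold (Cela1) in edgeR's quasi-likelihood test. Their median log2 fold change was 2.51, against -0.05 over all tested genes, and 6.73% of tested genes were called higher. This comparison shares its 7 KPC mice with the first one. The groups overlapped for 6 of 6, while 1.24% of tested genes had every KPC ASC KO mouse above every KPC mouse.

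Among KPC ASC KO mice, Cela1 was highest in mouse 318 (58647 CPM), followed by mice 335 (49079 CPM), 388 (47887 CPM), 377 (12797 CPM) and 384 (9797 CPM). The first 3 lay within the WT range, and the other 2 lay below all WT mice and below KPC mouse 48, at 15652 CPM. Its log2 fold change against KPC was 2.93 (SE 0.65, adjusted p = 0.00971 in edgeR). Cela2a stood at 17826, 13608, 4095, 4433 and 14461 CPM in mice 318, 335, 377, 384 and 388 (log2 2.58, SE 0.59, adjusted p = 0.0121 in edgeR). The gap between mice 377 and 384 and the other mice was present here too.

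In the same order of mice, Cela3a stood at 11238, 7318, 2661, 1521 and 4560 CPM, and mouse 377 lay above every KPC mouse (log2 2.87, SE 0.71, adjusted p = 0.0196 in edgeR). Cela3b stood at 44836, 44656, 19412, 13325 and 41845 CPM (log2 2.22, SE 0.61, adjusted p = 0.0260 in edgeR). Thus the closely related pair differed in how the mice were spaced: Cela3a fell in steps from mouse 318 to mouse 384, whereas Cela3b was nearly level in mice 318, 335 and 388.

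Cpa1 stood at 57239, 51673, 20106, 15365 and 47553 CPM in mice 318, 335, 377, 384 and 388 (log2 2.41, SE 0.62, adjusted p = 0.0187 in edgeR). Cpb1 stood at 38521, 30924, 13196, 9930 and 28993 CPM (log2 2.44, SE 0.60, adjusted p = 0.0155 in edgeR). The carboxypeptidases thus ordered the 5 mice alike. Mice 377 and 384 were also the KPC ASC KO mice with high macrophage sums, 2835 and 2695 CPM against 836 to 1046 in mice 318, 335 and 388, and high fibroblast sums, 3076 and 2860 CPM against 887 to 1040. Their part in the result was not tested.

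These calls depended on which mice entered the fit. On all 18 mice DESeq2 also called 6 of 6, and 6 of 6 had an unadjusted p under 0.05 in edgeR. With only the KPC and KPC ASC KO mice in the fit, edgeR called 0 of 6, with log2 fold changes of 2.23 to 2.94 and adjusted p between 0.0521 and 0.0842. Without KPC mice 40, 89, 145 and 154, 0 of 6 were called (log2 1.57 to 2.23, adjusted p 0.219 to 0.325) and 1 gene of all those tested passed. Scaled by total counts alone, 6 of 6 were called higher, by 1.33 to 1.98 on the log2 scale, where the median of all tested genes was -1.14. Without KPC ASC KO mouse 318, or without mouse 335, 2 of 6 were called. Without KPC mouse 48, the log2 fold changes were larger, between 2.82 (Cela3b) and 3.64 (Cela1), and 6 of 6 were called higher.

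The third comparison sets KPC ASC KO against WT pancreas. None of the 6 was called changed by edgeR, in which 0% of all tested genes were called, and 0 of 6 had an unadjusted p under 0.05, as 691 of the 6920 genes did. DESeq2 called 0 of 6 and 8 genes in all. The log2 fold changes lay between -0.28 (Cela1, 95% confidence interval -1.64 to 1.08) and -0.01 (Cpb1, -1.28 to 1.26), with adjusted p from 0.930 to 0.999. These intervals span more than a 2-fold difference in either direction, so equality is not shown. As a share of all counts the 6 genes held 12.4%, 11.9% and 11.7% in KPC ASC KO mice 318, 335 and 388 and 7.07% and 6.08% in mice 377 and 384.

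**Figure D2:**
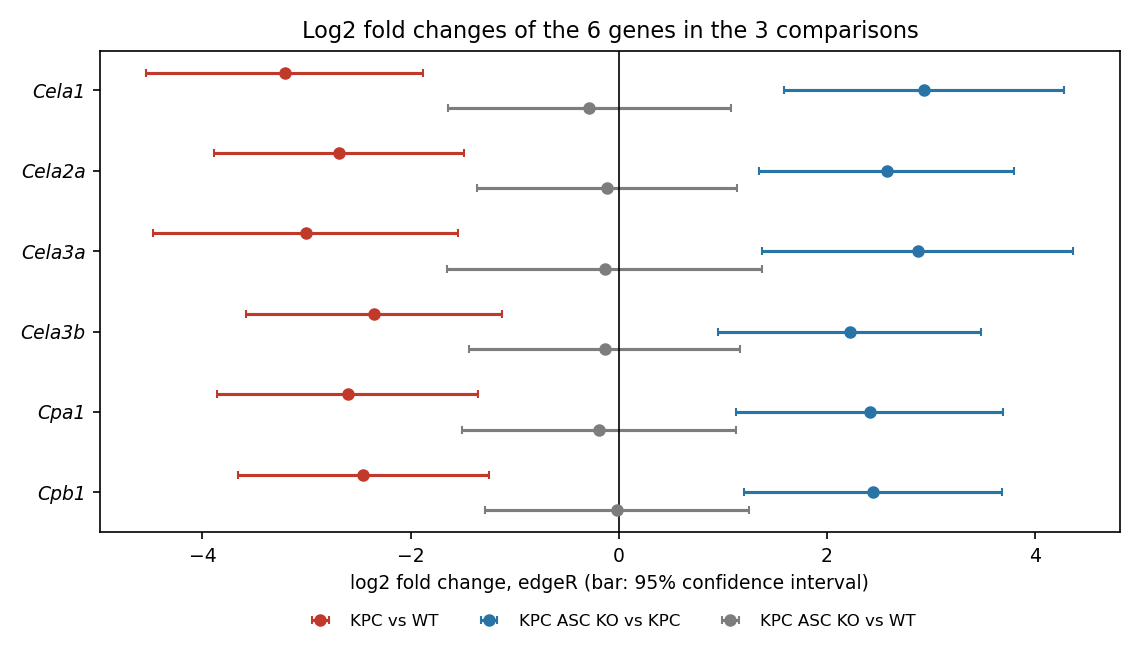
Log2 fold changes from edgeR with 95% confidence intervals for the 6 genes in the 3 comparisons, all fitted on 18 mice. The KPC against WT intervals lie wholly below 0, the KPC ASC KO against KPC intervals wholly above 0, and the KPC ASC KO against WT intervals include 0.

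Over the 3 groups, the order of mean levels was the same for each gene: WT highest, KPC ASC KO next and KPC lowest. For Cela1 the means were 43303 ± 12100, 35641 ± 22636 and 4679 ± 5360 CPM (SD, n = 6, 5 and 7). For Cpb1 the means were 24537 ± 6099, 24313 ± 12226 and 4484 ± 4833 CPM. The medians did not keep the order of the means. For every gene but Cela3a, the KPC ASC KO median lay above the WT median. These medians were 47887 against 39605 CPM for Cela1, 28993 against 23276 CPM for Cpb1 and 4560 against 5714 CPM for Cela3a. WT and KPC ASC KO, neighbours in the order of means, did not differ beyond their spread for any of the 6.

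A within-library question is whether the 6 transcripts fell in proportion. Each gene's share of the summed counts of the 6 needs no scaling between libraries, although a lower share of 1 gene raises those of the others. In KPC pancreas the Cela1 share was lower, and the Cela3b and Cpb1 shares were higher, than in WT. Cela1 held 26.1% ± 1.02 (SD, n = 6) of the sum in WT mice and 18.2% ± 1.85 (SD, n = 7) in KPC mice, whose values ran from 14.1% (mouse 40) to 19.3% (p = 0.00117 by an exact permutation test, two-sided; adjusted p = 0.00699 over 18 tests). The p-value is the smallest that 7 mice against 6 can give, and 7 of 7 KPC mice lay below the WT mice, which ran from 24.6% to 27.8%.

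Cela3b held 21.7% ± 0.581 (SD, n = 6) in WT mice and 26.8% ± 2.02 (SD, n = 7) in KPC mice, with 7 of 7 KPC mice above all WT mice (exact permutation test, p = 0.00117, adjusted p = 0.00699). Cpb1 held 14.9% ± 0.650 and 17.1% ± 0.931, again with 7 of 7 KPC mice above all WT mice and the same p-values in the exact test. The shares of Cela2a (7.10% in WT, 7.34% in KPC), Cela3a (3.66% and 2.79%) and Cpa1 (26.6% and 27.7%) overlapped and did not pass (adjusted p 0.404 to 0.974, exact permutation test). Set against Cpb1, Cela1 had 176 ± 11.7 counts per 100 Cpb1 counts in WT pancreas (SD, n = 6) and 107 ± 15.1 in KPC pancreas (SD, n = 7). Without KPC mice 40, 89, 145 and 154 the Cela1 share differed by -7.25 percentage points, with an adjusted p of 0.107 in the exact test of 3 mice against 6, where the groups still did not overlap and the unadjusted p was the smallest that design can give.

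**Figure D3:**
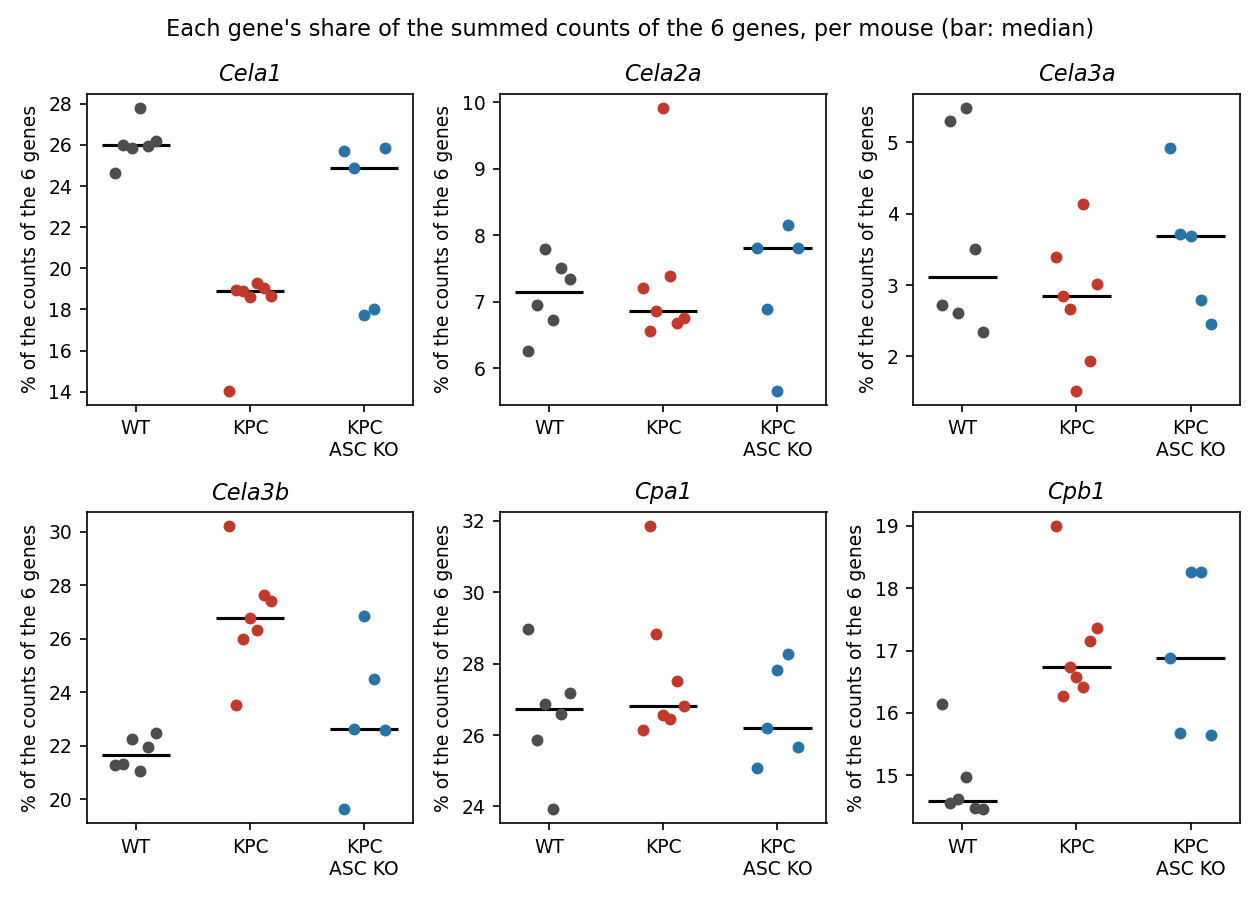
Percent of the summed counts of the 6 genes held by each gene in WT (n = 6), KPC (n = 7) and KPC ASC KO (n = 5) pancreas; each point is 1 mouse and the bar is the median. WT and KPC points are separate for Cela1, Cela3b and Cpb1 and overlap for Cela2a, Cela3a and Cpa1; the vertical axes do not start at 0 and differ between panels.

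In KPC ASC KO mice 318, 335 and 388 the Cela1 share was 25.7%, 24.9% and 25.8%, and in mice 377 and 384 it was 17.7% and 18.0%. The first 3 lay in the WT range and the other 2 in the KPC range, which reaches down to 14.1% through mouse 40 alone. The remaining KPC mice ran from 18.6% to 19.3%, above both. Among KPC ASC KO mice, those with lower levels of the 6 genes thus also had the lower Cela1 share. KPC mouse 48, whose 6 genes held 7.63% of all counts, had a Cela1 share of 18.9%, close to the 19.0% of KPC mouse 43, whose 6 genes held 0.797%. Within KPC pancreas the Cela1 share therefore varied little, mouse 40 apart, while the level ran over a 9.57-fold range.

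None of the 6 shares passed the exact test in KPC ASC KO against KPC, where Cela3b came nearest (23.2% ± 2.67, n = 5, against 26.8% ± 2.02, n = 7; adjusted p = 0.100). None passed against WT, where the Cpb1 share was 16.9% ± 1.30 (SD, n = 5) against 14.9% ± 0.650 (SD, n = 6), with 5 of 5 KPC ASC KO mice above the WT mean (exact permutation test, p = 0.0130, adjusted p = 0.0584). Without WT mouse 69, the WT mouse with the highest Cpb1 share, 2 shares passed in that comparison, Cela1 (by -3.94 percentage points) and Cpb1 (by 2.33). Without KPC ASC KO mouse 318, the Cela3b share passed (by 2.42).

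**Figure D4:**
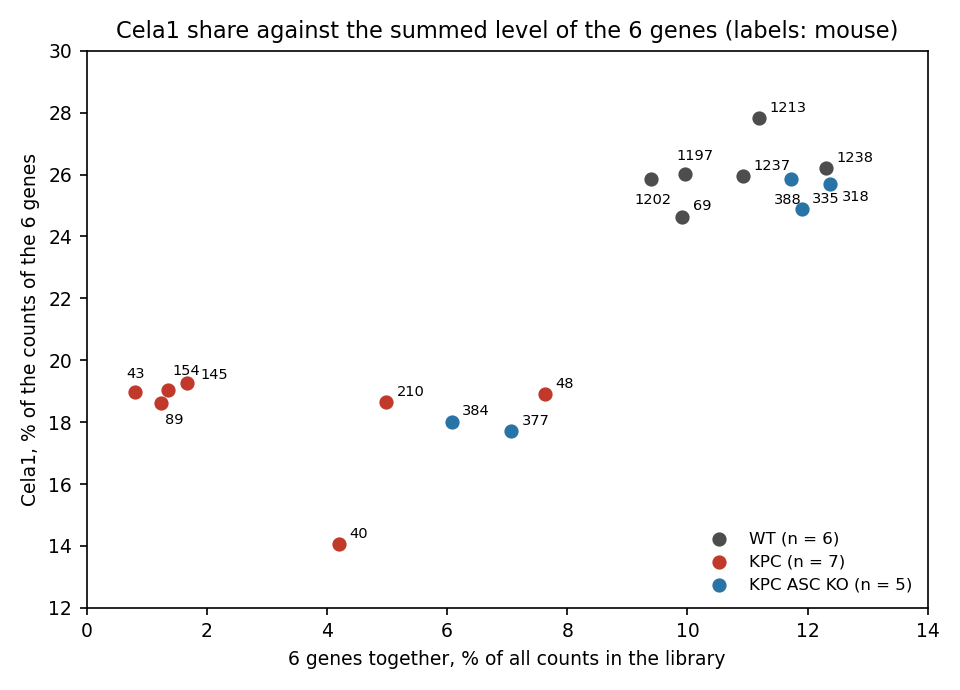
Cela1 as a percent of the counts of the 6 genes (vertical axis, starting at 12%) against the 6 genes as a percent of all counts in the library (horizontal axis); each point is 1 mouse, labelled by its number and coloured by group. The WT mice and KPC ASC KO mice 318, 335 and 388 lie at 24.6% to 27.8%, and the KPC mice and KPC ASC KO mice 377 and 384 at 14.1% to 19.3%.

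The Cela3a transcript varied on its own. Per 100 counts of its neighbour Cela3b it ran from 10.4 to 26.0 in WT mice, from 5.69 to 15.7 in KPC mice and from 10.9 to 25.1 in KPC ASC KO mice. WT mice 1197 and 1213 (24.8 and 26.0) and KPC ASC KO mouse 318 (25.1) stood above the other 15 mice, of which the highest was at 16.4. Its share of the 6-gene sum had a coefficient of variation of 38.2% in WT mice, against 2.67% for Cela3b, 3.89% for Cela1, 4.37% for Cpb1, 6.23% for Cpa1 and 7.90% for Cela2a. The WT mice with high Cela3a were not the WT mouse with the highest level of the other members, which was mouse 1238.

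The same spread was seen in the profiles over all 18 mice, compared as the root mean square difference of centred log2 CPM. Cela3b and Cpb1 were the closest of the 15 pairs at 0.12, followed by Cpa1 with Cpb1 at 0.13 and Cela3b with Cpa1 at 0.17. The farthest was Cela3a with Cela3b at 0.56, in spite of the similarity of their transcripts. That distance was not particular to the pair, as Cela3a lay 0.47 (Cela1) to 0.55 (Cela2a) from the other members. Among tested genes outside the 6, those nearest to their mean profile were Ctrl (0.10), which encodes a chymotrypsin-like protease, Rnase1 (0.11), the pancreatic ribonuclease, and the pancreatic amylase genes Amy2a2 (0.11), Amy2a5 (0.13) and Amy2a3 (0.14). The median over other tested genes was 2.06. Ctrl was also the gene nearest to Cela1 (0.22), Cela2a (0.18) and Cela3a (0.46), while Cel, the bile salt-activated lipase gene, was nearest to Cpa1 (0.09) and 2210010C04Rik nearest to Cpb1 (0.10). In WT, KPC and KPC ASC KO pancreas, Ctrl averaged 27844 ± 7065, 4036 ± 4626 and 25963 ± 14532 CPM (SD, n = 6, 7 and 5).

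Other pancreatic proteases and their inhibitors were mostly lower and higher in the same comparisons. Of 13 tested, 11 were lower in KPC than in WT pancreas (median log2 -2.33) and 10 were higher in KPC ASC KO than in KPC pancreas (median 2.13), against 15.1% and 6.73% of all tested genes. The chymotrypsinogen gene Ctrb1 (-2.19, SE 0.59) and the trypsinogen genes Prss2 (-2.26, SE 0.58) and Try4 (-2.30, SE 0.59) were lower in KPC pancreas, with adjusted p of 0.00745, 0.00593 and 0.00582 in edgeR. The trypsinogen genes share sequence, so their counts are uncertain in the same way as those of Cela3a and Cela3b. Of 18 other secretory genes of acinar cells, 18 were lower in KPC and 16 higher in KPC ASC KO pancreas than in KPC. Amy2a5 (-2.71), Amy2a4 (-2.63) and Amy2a2 (-2.68), near-identical amylase genes, had log2 fold changes within the range of the 6 genes.

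Most of the acinar transcription factors fell in KPC pancreas. Of 6 listed, 5 were tested. Among those 5, 4 were lower in KPC than in WT pancreas and 2 were higher in KPC ASC KO than in KPC pancreas. Of all tested genes, 15.1% and 6.73% were called in these directions. Rbpjl, a subunit of PTF1, was lower in KPC by 2.29 on the log2 scale (log2 -2.29, SE 0.55, adjusted p = 0.00621 in edgeR) and higher in KPC ASC KO than in KPC (2.24, SE 0.57, adjusted p = 0.0244). Bhlha15, which encodes the secretory-cell factor MIST1, was lower in KPC (-3.06, SE 0.52, adjusted p = 0.000653) and higher in KPC ASC KO (2.18, SE 0.53, adjusted p = 0.0196). Ptf1a was lower in KPC (-2.01, SE 0.64, adjusted p = 0.0250), and its difference between KPC ASC KO and KPC of 1.73 (SE 0.65) did not pass (adjusted p = 0.101).

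Carboxypeptidases of the same M14 family with other tissue roles were mixed in direction. Of 7 tested, 2 were lower and 2 higher in KPC than in WT pancreas, where 15.1% and 14.8% of all tested genes were called lower and higher. The median log2 fold change of the 7 was -0.21. Aebp1, which encodes a secreted matrix-associated protein, was higher in KPC than in WT (1.30, SE 0.36, adjusted p = 0.0109), and Cpn1, the catalytic subunit of plasma carboxypeptidase N, was lower (-1.72, SE 0.43, adjusted p = 0.00535 in edgeR). In KPC ASC KO against KPC pancreas, 2 of the 7 were called higher, against 6.73% of all tested genes. Cpn1 was among them (1.73, SE 0.43, adjusted p = 0.0172 in edgeR), while Aebp1 was not called (-0.47, SE 0.34, adjusted p = 0.401). Cpa3, mentioned here because it lies next to Cpb1, was near the limit of detection. It averaged 1.42 ± 2.27 CPM (SD, n = 6) in WT, 3.16 ± 2.71 CPM in KPC (n = 7) and 0.941 ± 1.34 CPM (n = 5) in KPC ASC KO pancreas, from 2, 37 and 2 counts in all. Of the elastases of leukocytes, 1 of 4 passed the filter on low counts, the macrophage metalloelastase gene Mmp12, which was not called in any comparison (KPC against WT, log2 2.02, SE 0.99, adjusted p = 0.130 in edgeR).

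**Figure D5:**
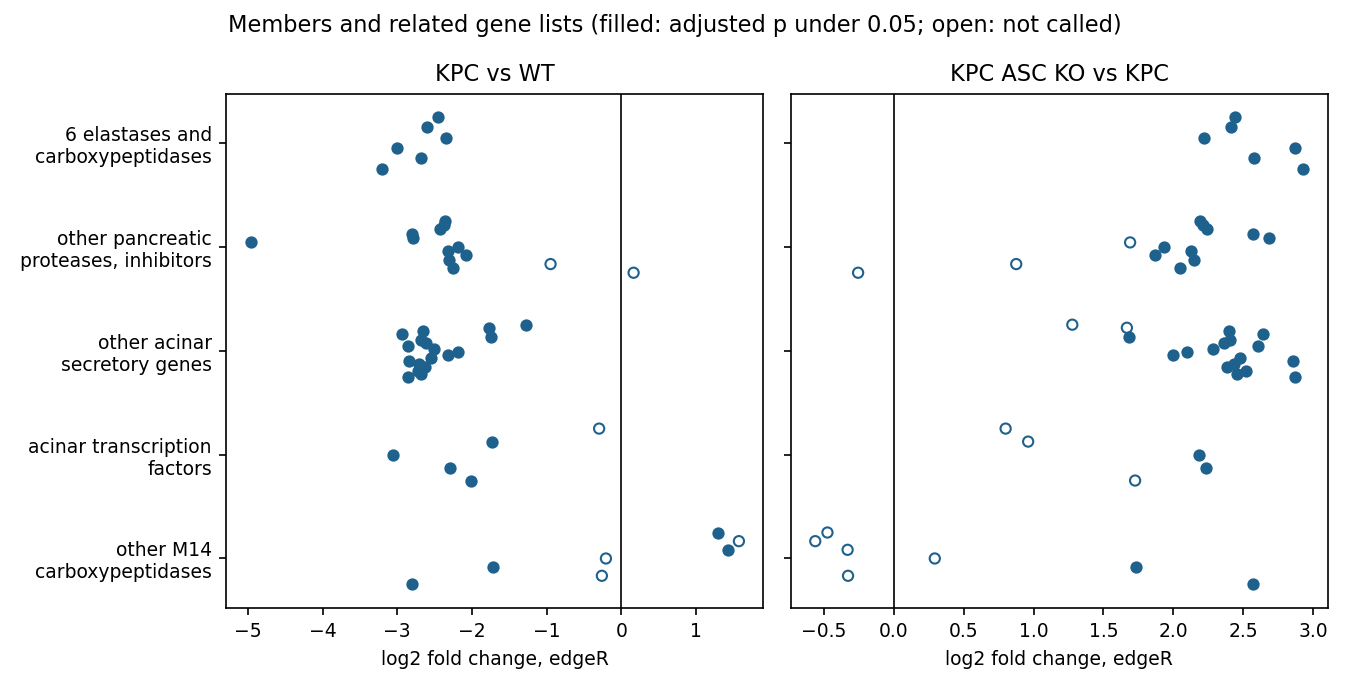
Log2 fold changes from edgeR for the 6 genes and for 4 related gene lists in KPC against WT (left) and KPC ASC KO against KPC (right); each point is 1 gene, filled where its adjusted p is under 0.05. The 6 genes lie between -3.21 and -2.35 on the left and between 2.22 and 2.93 on the right, while the other M14 carboxypeptidases spread on both sides of 0 (the horizontal axes differ).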

How the data were processed

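Per the labels' protocols, poly(A)-primed libraries carried a sample index of 8 bp and a unique molecular identifier of 10 bp, and reads of 101 bases identified the transcript. The authors deposited raw whole-number counts for each gene. GRCm38, R 4.1.2, edgeR 3.36.0 and limma 3.50.0 were used by the authors, per the submitters' processing notes. For the aligner and the counting rule, nothing is given in the sources used here. Groups were taken from the genotype labels. The labels do not describe litters or batches.

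The counts were analysed here with edgeR 4.0.16 (filterByExpr with a minimum count of 10, library totals over the 6920 kept genes, TMM scaling, robust quasi-likelihood F test on all 18 mice, Benjamini-Hochberg adjustment over those genes, calls at an adjusted p under 0.05). Log2 CPM for profiles used a prior count of 2. Shares of the 6-gene sum were compared by exact permutation tests in Python with scipy 1.17.1, adjusted over 18 tests. Alternatives were DESeq2 1.42.0, limma-voom 3.58.1, other scalings and filters, fewer groups, summed Cela3 genes and leaving out mice. The tests were also tested on simulated data. Named genes are the 6 members, at most 3 tested genes with the highest mean CPM from each related list, the 5 genes nearest to the mean profile and the nearest to each member. A gene that this rule names in the related lists is not reported here by name. The members and lists were chosen with earlier results of these data known.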

Additional observations from a re-analysis of the deposited data

Results flagged for a closer look

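In 36 checks of a group's highest or lowest mouse against the others (Dixon's test, which chance passes in about 1 of 20 groups), 6 values stood apart. KPC mouse 40 had the lowest Cela1 share of the 6-gene counts (14.1%) and the highest Cpb1 share among KPC mice (19.0%). KPC mouse 89 had the highest Cela2a share of its group (9.92%). WT mouse 69 had the highest Cpb1 share among WT mice (16.1%). In level, Cpa1 stood apart in WT mouse 1238 (65752 CPM) and in KPC mouse 48 (23886 CPM), the mice with the highest level of that gene in their groups.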

How the results depend on the processing

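No paired analysis was possible because mouse numbers are not shared between groups. Of the log2 fold changes recomputed for KPC against WT, 157 kept their direction and call, and 4 lost the call, each of them without KPC mice 40, 89, 145 and 154, where 2 of 6 genes were called. For KPC ASC KO against KPC, 132 kept direction and call, and 29 kept direction and lost the call. The number called there was 6 with DESeq2, limma-voom, other scalings or a fit of all mice, 2 with no filter on low counts, 0 with only these 2 groups in the fit, 0 without the 4 KPC mice, and 2 to 6 with any single mouse left out; Cela3b lost its call without KPC mouse 89, 145 or 154, and Cela3b and Cpa1 lost theirs without KPC ASC KO mouse 388. Scaling by total counts called 5684 genes of all tested for KPC against WT, in place of 2070, and 5193 for KPC ASC KO against KPC, in place of 652. Over the alternatives that left out no single mouse, adjusted p across the 6 genes ran from 1.15e-06 to 0.112 for KPC against WT and from 0.000209 to 0.325 for KPC ASC KO against KPC. The cause of these changes was not tested.

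For KPC ASC KO against WT 0 of 6 were called under every alternative run, and signs changed around 0. Cpb1 had a log2 fold change of 0.0599 with total counts, 0.017 with no filter and 0.0044 with only the 2 groups compared. With single mice left out, log2 fold changes ran from -0.37 to 0.0934 for Cela2a, -0.58 to 0.10 for Cela3a, -0.28 to 0.0606 for Cela3b, -0.39 to 0.0045 for Cpa1 and -0.25 to 0.18 for Cpb1.

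The number of changed shares in KPC against WT was 3 with any single mouse left out and 0 without the 4 KPC mice. In that last setting the Cela1, Cela3b and Cpb1 shares still differed, by -7.25, 3.92 and 1.91 percentage points. Each had an adjusted p of 0.107 in the exact test. A test of 3 mice against 6 cannot give a much smaller value, so the 0 does not show that the differences were gone. In KPC ASC KO against WT the number of changed shares was 1 with Cela3a and Cela3b summed (Cpb1) and 0 to 2 with single mice left out. Differences in share that changed sign were uncalled. With single mice left out, they ran for Cela2a from -0.187 to 0.381 percentage points in KPC against WT, from -0.294 to 0.357 in KPC ASC KO against KPC and from -0.0520 to 0.570 in KPC ASC KO against WT. For Cpb1 in KPC ASC KO against KPC they ran from -0.459 to 0.196, and in KPC ASC KO against WT they ran from -0.496 to 0.221 for Cela3a and from -0.488 to 0.520 for Cpa1. Without the 4 KPC mice the Cela2a difference was -0.371 in KPC against WT and 0.541 in KPC ASC KO against KPC, where that of Cpb1 was 0.158. Depth does not limit the 6 genes, whose smallest count was 192, but it does limit Cpa3 and Mmp12.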
